A study of Mus musculus with 4 samples.

Results

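The genes described here belong to the Fas and TRAIL death receptor pathway and to its caspases. They are the receptor gene Fas, the ligand genes Fasl and Tnfsf10 (TRAIL), the adaptor gene Fadd, the regulator gene Cflar (c-FLIP), and the caspase genes Casp6, Casp8 and Casp9. The members were chosen by name, as every probe set that the platform annotation assigns to 1 of these 8 symbols. All 8 genes were measured, out of 12393 genes with a probe set of their own, and they were represented by 13 probe sets out of 22626 tested. Cflar had 4 probe sets, Fasl and Casp9 had 2 each, and the other 5 genes had 1 each.

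Messenger RNA was measured on 4 Affymetrix mouse arrays in dendritic cells (DC) purified from the spleen. In the TCDD group, female C57BL/6 mice aged 8 to 12 weeks received 10 µg/kg of the dioxin TCDD in corn oil by intraperitoneal injection, and in the DMSO group such mice received the DMSO solvent in corn oil. Cells were taken 24 h later, and each group had 2 arrays, numbered as biological replicates. Per the labels a group had 3 mice, whose spleens were pooled, and the DC were purified with magnetic beads to above 90%. The labels do not say whether each array had mice of its own, so p-values measure the spread between these arrays, which may be partly technical.

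Fas is a cell surface receptor that, once bound by Fas ligand, recruits FADD through a shared death domain. FADD in turn gathers caspase-8, which cuts itself into the active protease and starts the cascade that ends in executioner caspases, and TRAIL starts the same route through its own receptor. c-FLIP resembles caspase-8 without its protease activity and sits in the same complex, where it sets how much caspase-8 becomes active. Caspase-9 is the initiator of the other route, which starts at mitochondria and runs through APAF1, and caspase-6 is cut further down. In the immune system Fas ligand is best known from activated T cells and natural killer (NK) cells, and Fas is one of the ways in which antigen-presenting cells are removed. TCDD is a ligand of the aryl hydrocarbon receptor (AhR), a transcription factor.

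Among these genes the caspase-8 gene differed most between the groups. Casp8 stood 1.10 lower on the log2 scale in TCDD than in DMSO. Both bright probe sets of its regulator Cflar stood lower as well, by 0.65 and 0.50, while the adaptor gene Fadd stood 0.35 higher. The Cflar difference of 0.50 came mostly from TCDD replicate 1, and without that array it was -0.10. Fas, Fasl and Tnfsf10 gave signals below the dim threshold on every probe set in both groups. None of the 13 probe sets passed the test: limma called 0 of them, and 0 of the 22626 probe sets in all, at a Benjamini-Hochberg adjusted p under 0.05 (background 0%). The smallest adjusted p over the whole table was 0.349. At an unadjusted p under 0.05 there were 4 member probe sets, against a background of 13.1% of all probe sets. For a single probe set the smallest two-sided p of an exact permutation test at this size is 0.333, so none was run.

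Levels are given as log2 RMA values, which the deposited table rounds to 1 decimal. A difference is TCDD minus DMSO, its standard error (SE) is the moderated one of limma with n = 2 arrays per group, and a probe set is called dim where its mean over the 4 arrays lies below the 40th percentile of all probe sets, at 5.525. Of the 13 member probe sets 7 were above that threshold and 6 were dim. Groups are said not to overlap where both TCDD arrays lay above, or both below, the pair of DMSO arrays. That held for 6 member probe sets, 2 with TCDD above and 4 with TCDD below, and over all probe sets for 37.4%, 19% with TCDD above and 18.4% with TCDD below.

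Some facts of the arrays bear on these values. Bright probe sets lay lower in TCDD in general: the median difference was -0.20 for probe sets with a mean level between 7 and 8, and -0.35 between 8 and 9, against 0.05 below 6. TCDD replicate 1 stood apart in its control probe sets, where the log2 gap between the 3′ end and the middle of Gapdh was 3.6, with 2.0 in the other TCDD array and 1.5 and 2.1 in DMSO. For beta-actin the TCDD gaps were 4.0 and 2.0, and those in DMSO were 1.9 and 2.1. The gap between the 3′ and 5′ ends set this array apart less. For Gapdh it was 5.4 and 4.7 in TCDD and 4.1 and 4.9 in DMSO. For beta-actin it was 4.4 and 3.3 in TCDD and 4.0 and 3.7 in DMSO. The positions of the member probe sets along their transcripts were not used here, so the part of these gaps in a member's difference was not tested. Ahrr, the gene of the AhR repressor and a direct AhR target, lay at 7.2 and 7.8 in TCDD and at 5.5 and 5.2 in DMSO, without overlap (limma adjusted p = 0.349). It is 1 of 6 AhR targets listed, all measured. On the brightest probe set of each gene all 6 differences were above 0 with a median of 0.20. Higher without overlap were 2, Ahrr and the dim Cyp1a2 at 0.10, against 20% of all genes. Cyp1a1 and Nqo1 were dim as well. Tiparp, an AhR-induced enzyme gene, overlapped at 0.50. Without TCDD replicate 1 Tiparp stood at 0.00, Cyp1b1 at -0.10 and Nqo1 at -0.05. The other Tiparp probe sets differed by -0.15 and 0.05, and those of Cyp1b1 by -0.05 and 0.20.

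**Figure D1:**
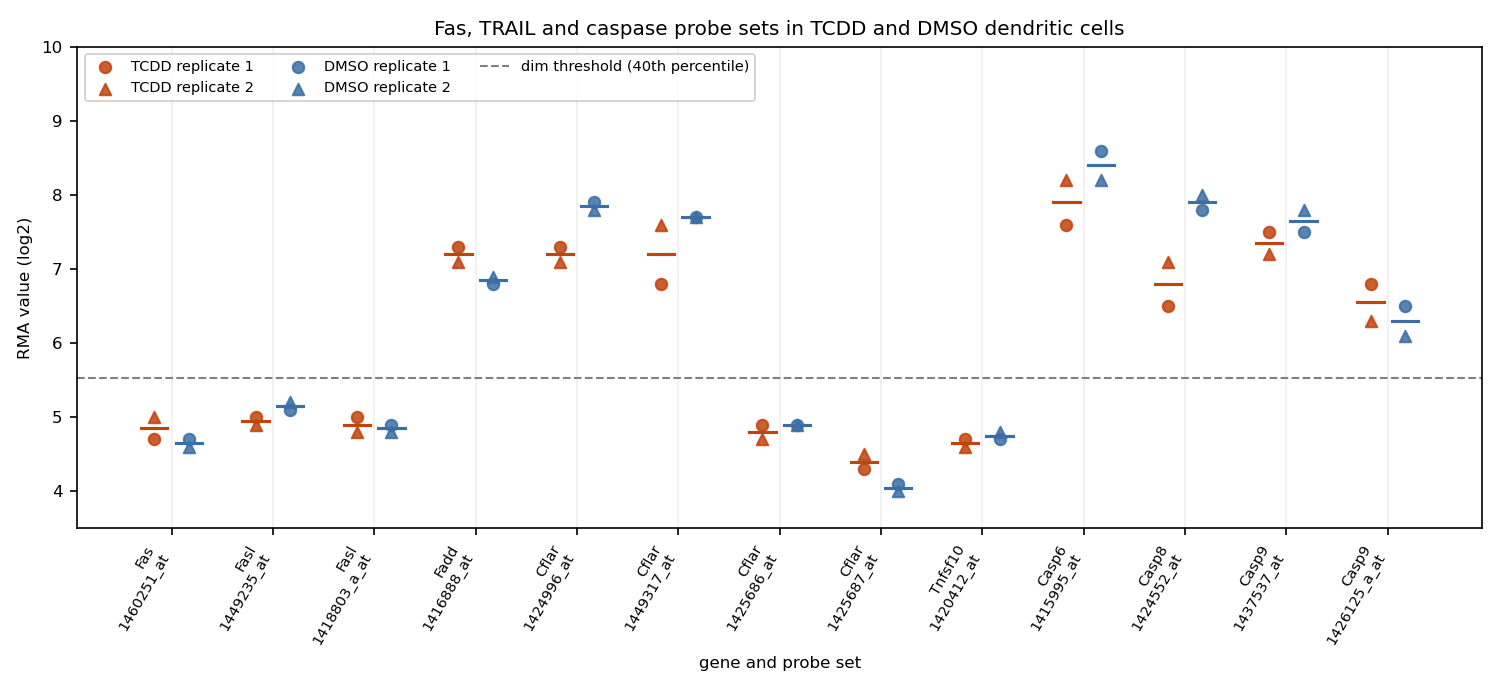
RMA values (log2, vertical axis) of the 13 probe sets of Fas, Fasl, Fadd, Cflar, Tnfsf10, Casp6, Casp8 and Casp9 in each array; TCDD is in red and DMSO in blue, circles are replicate 1, triangles replicate 2, short lines are group means, and the dashed line is the dim threshold of 5.525. Casp8 and Cflar 1424996_at show both TCDD arrays well below both DMSO arrays, Fadd shows the opposite order, and Fas, Fasl and Tnfsf10 lie below the dashed line in all arrays.

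The ligands and the receptor come first along the pathway. Fas, the receptor gene, lay at 4.7 and 5.0 in the TCDD arrays and at 4.7 and 4.6 in the DMSO arrays, a difference of 0.20 (SE 0.143; limma adjusted p = 0.556). The groups met at 4.7, and the highest value was that of TCDD replicate 2. For Fasl, the Fas ligand gene, probe set 1449235_at read 5.0 and 4.9 in TCDD and 5.1 and 5.2 in DMSO, a difference of -0.20 (SE 0.0848; limma adjusted p = 0.441). These groups did not overlap, but the gap between them was 0.1, which is 1 rounding step. The second Fasl probe set, 1418803_a_at, read 5.0 and 4.8 in TCDD and 4.9 and 4.8 in DMSO, so the groups overlapped and the difference was 0.05. This difference turned to -0.05 without TCDD replicate 1 and to -0.01 under cyclic loess normalization.

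Tnfsf10, the TRAIL gene, read 4.7 and 4.6 in TCDD and 4.7 and 4.8 in DMSO, a difference of -0.10 (SE 0.0848; limma adjusted p = 0.609). Its groups met at 4.7. All 4 probe sets of the ligands and the receptor were dim, where a change in the transcript need not show, so these values do not say whether the genes were expressed. Markers of T and NK cells, the cells best known for Fas ligand, were measured on the same arrays. Of 14 such markers 12 were measured, and 5 of them were dim, namely Cd3g, Cd2, Thy1, Ncr1 and Gzmb. Their mean level was 6.08 and 5.9 in the TCDD arrays and 6.21 and 6.02 in the DMSO arrays. Their median difference was -0.10, with 4 differences above 0 and 8 below. Without overlap 1 was higher and 2 were lower, against 20% and 19.4% of all genes. Klrd1, an NK receptor gene far above the dim threshold, read 9.6 and 9.7 in TCDD and 10.1 and 10.7 in DMSO. Its difference of -0.75 was the largest in size of the 12, while the NK genes Ncr1 and Prf1 each differed by -0.10 and Gzmb by 0.10, all with overlap.

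Fadd, the adaptor that links the receptor to caspase-8, read 7.3 and 7.1 in TCDD and 6.8 and 6.9 in DMSO. Both TCDD arrays were above both DMSO arrays, and the gap between the groups was 0.2. The difference was 0.35 (SE 0.11), or 1.27-fold, and did not pass (limma adjusted p = 0.379). Fadd was the 1 member probe set above the dim threshold that stood higher in TCDD without overlap, where 15.9% of all probe sets above that threshold did so. Among the 4013 probe sets within 0.5 of its mean level the median difference was -0.10, and 11.3% had a difference as high as that of Fadd or higher. The Fadd difference ranged from 0.25 to 0.50 over the settings run.

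Cflar encodes c-FLIP, the regulator that pairs with caspase-8. Its probe set 1424996_at read 7.3 and 7.1 in TCDD and 7.9 and 7.8 in DMSO. The groups lay 0.5 apart at their closest, and within each group the arrays differed by at most 0.2. The difference was -0.65 (SE 0.11), or 0.637-fold (limma adjusted p = 0.349). That adjusted value is the smallest of the whole table, but it is a tie. Naip5, Ahrr, Sirpa, Camp and Dffa, among others, share it, so it does not rank this probe set first. Probe set 1449317_at of the same gene read 6.8 and 7.6 in TCDD and 7.7 in both DMSO arrays. Here TCDD replicate 1 stood far below and TCDD replicate 2 was 1 rounding step below DMSO. The difference was -0.50 (SE 0.331; limma adjusted p = 0.546), -0.10 without TCDD replicate 1 and -0.90 without TCDD replicate 2.

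The other pair of Cflar probe sets was dim. Probe set 1425686_at read 4.9 and 4.7 in TCDD and 4.9 in both DMSO arrays, a difference of -0.10. Probe set 1425687_at went the other way, with 4.3 and 4.5 in TCDD and 4.1 and 4.0 in DMSO, a difference of 0.35 (SE 0.11; limma adjusted p = 0.379). The platform annotation gives both the same source sequence. The lower value of Cflar in TCDD therefore rests on the 2 bright probe sets, and without TCDD replicate 1 mainly on 1424996_at.

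Casp8, the gene of the initiator caspase of the death receptor route, read 6.5 and 7.1 in TCDD and 7.8 and 8.0 in DMSO. Both TCDD arrays were below both DMSO arrays by 0.7 or more, and TCDD replicate 1 was the lower of the TCDD arrays. The difference was -1.10 (SE 0.264), or 0.467-fold, with an unadjusted p of 0.0248 and a limma adjusted p = 0.379. Among the 7 member probe sets above the dim threshold 3 were lower in TCDD without overlap, this one and both of Cflar, against 24.1% of all probe sets above that threshold. All 3 had a mean level between 7 and 8, where 31.1% of all probe sets were lower without overlap. Both Cflar probe sets stand for 1 gene, and 1449317_at cleared DMSO by only 0.1. Casp8 was the only member probe set that differed by at least 1 without overlap. The difference was -0.80 without TCDD replicate 1 and -1.40 without TCDD replicate 2, so it was lower in each TCDD array taken alone. Under quantile normalization it was -0.91 and under cyclic loess -0.95.

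Casp8 was also set beside probe sets of like brightness. Of all probe sets 3472 had a mean within 0.5 of that of Casp8, their median difference was -0.20, and 3.95% of them differed by -1.10 or less. The same comparison gave 18.3% for Cflar 1424996_at among 3109 probe sets and 25.9% for Cflar 1449317_at among 3273. These shares describe where the members lie among probe sets of their level and are not a test. The probe sets closest to Casp8 in their pattern over the 4 arrays, by Euclidean distance after centring each probe set on its mean, were those of Sdcbp, Sfr1 and Stk17b, each at 0.0866, and 4 probe sets in all lay at that distance. Sdcbp read 9.4 and 9.9 in TCDD and 10.7 and 10.9 in DMSO.

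Markers of other cells differed between the same arrays, and their part in the lower Casp8 and Cflar values was not tested. In bulk RNA, fewer cells of a type and less RNA per cell cannot be told apart. The DC markers had a mean level of 9.48 and 9.88 in TCDD and 10.3 and 10.1 in DMSO, and 4 of 11 measured were lower in TCDD without overlap, with a median difference of -0.60. Over all genes, with 1 probe set each, 20% were higher and 19.4% lower without overlap. Probe sets as bright as most DC markers were lower more often. Of all probe sets with a mean level of 8 to 9, 37.2% were lower without overlap, with a median difference of -0.35. From 9 to 15 these were 37.8% and -0.3, and from 7 to 8 they were 31.1% and -0.2. The counts of lower DC, macrophage and monocyte markers are to be read against these shares, and do not by themselves set those markers apart. In size, all 11 DC differences were below 0, and the DC median of -0.60 lay below each of these level medians. Leaving out TCDD replicate 1 brought the DC median to -0.30. The level medians then stood at -0.50 from 8 to 9 and at -0.45 from 9 to 15. Macrophage and monocyte markers averaged 7.76 and 7.86 in TCDD and 8.47 and 8.22 in DMSO, with 4 of 10 lower without overlap. Of these differences 7 were below 0 and 3 above, with a median of -0.70, or -0.55 when TCDD replicate 1 was left out. Whether the DC, macrophage and monocyte medians depart from probe sets of like level was not tested. Neutrophil markers averaged 7.5 and 6.06 in TCDD and 6.28 and 5.92 in DMSO, with the highest mean in TCDD replicate 1. Of the 9 measured, 2 were higher in TCDD without overlap, Camp and the dim Lcn2, and 1 was lower. Camp read 6.9 and 6.5 in TCDD and 5.6 and 5.1 in DMSO. The largest differences came from TCDD replicate 1 alone. S100a8 read 10.3 and 5.6 in TCDD and 6.4 and 5.9 in DMSO, and S100a9 read 9.6 and 5.3 in TCDD and 6.4 and 5.6 in DMSO. In both genes TCDD replicate 2 lay below both DMSO arrays. Of the 9 differences 7 were above 0 and 2 below. B cell markers averaged 6.66 and 6.24 in TCDD and 6.68 and 6.64 in DMSO. Erythroid markers, of which 2 of 4 were measured, averaged 5.65 and 5.75 in TCDD and 5.5 and 5.6 in DMSO.

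Casp6, an effector caspase, read 7.6 and 8.2 in TCDD and 8.6 and 8.2 in DMSO. The groups met at 8.2, and only TCDD replicate 1 lay below both DMSO arrays. The difference was -0.50 (SE 0.30; limma adjusted p = 0.534), and it was -0.20 without TCDD replicate 1, -0.18 under quantile normalization and -0.80 without TCDD replicate 2. Among the 2113 probe sets within 0.5 of its level the median difference was -0.30, and 33.9% were as low as Casp6 or lower. The probe sets closest to Casp6 in pattern were those of Celf1, Csf1r and Ipo7, each at a distance of 0.0866, with 7 probe sets at that distance in all.

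Casp9, the initiator caspase of the mitochondrial route, had both of its probe sets above the dim threshold, and they differed in sign. Probe set 1437537_at read 7.5 and 7.2 in TCDD and 7.5 and 7.8 in DMSO, a difference of -0.30 (SE 0.183; limma adjusted p = 0.534). Probe set 1426125_a_at read 6.8 and 6.3 in TCDD and 6.5 and 6.1 in DMSO, a difference of 0.25 (SE 0.267; limma adjusted p = 0.689). The groups overlapped in both. The first was -0.05 under quantile normalization, and the second was 0.00 without TCDD replicate 1, so no direction can be given for Casp9.

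**Figure D2:**
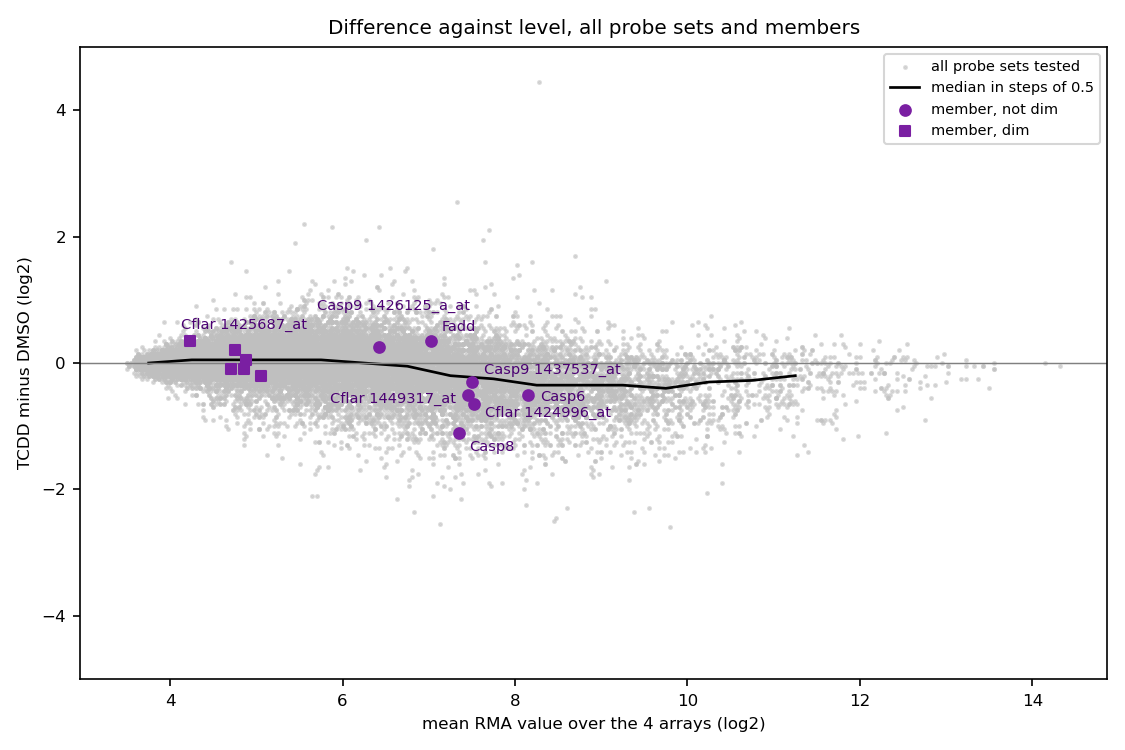
Difference TCDD minus DMSO (log2, vertical axis) against the mean RMA value over the 4 arrays (log2, horizontal axis) for all 22626 probe sets tested in grey, with the members in purple (circles above the dim threshold, squares dim) and the median in steps of 0.5 as a black line. Casp8 lies at -1.10, below the line, and both bright Cflar probe sets lie at -0.65 and -0.50, while Fadd lies above it at 0.35.

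Cflar and Casp8 lie beside each other on mouse chromosome 1. In the RefSeq annotation of assembly GRCm38.p6 no protein-coding gene stands between them, and 1 other annotated gene does. Their promoters are shown because both genes stood lower in TCDD, and those of Fas and Casp9 because they hold the core of the xenobiotic response element, the sequence bound by AhR with its partner ARNT. Each is the RefSeq sequence of the 250 bases before the transcription start of the gene, in build GRCm38.p6, and capitals mark the core, GCGTG, on either strand.
Cflar, chr1:58711241-58711490, plus strand: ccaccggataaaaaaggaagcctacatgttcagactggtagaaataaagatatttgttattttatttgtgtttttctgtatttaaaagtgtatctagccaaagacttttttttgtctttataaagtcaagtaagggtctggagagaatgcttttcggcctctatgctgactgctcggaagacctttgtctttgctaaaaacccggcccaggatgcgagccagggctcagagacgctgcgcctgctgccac
Casp8, chr1:58802252-58802501, plus strand: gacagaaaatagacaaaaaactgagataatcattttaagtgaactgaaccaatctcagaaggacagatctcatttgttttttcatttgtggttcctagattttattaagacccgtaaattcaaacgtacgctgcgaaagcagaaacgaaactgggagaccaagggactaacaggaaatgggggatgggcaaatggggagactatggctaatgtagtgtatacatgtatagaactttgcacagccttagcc
Fas, chr19:34290409-34290658, plus strand: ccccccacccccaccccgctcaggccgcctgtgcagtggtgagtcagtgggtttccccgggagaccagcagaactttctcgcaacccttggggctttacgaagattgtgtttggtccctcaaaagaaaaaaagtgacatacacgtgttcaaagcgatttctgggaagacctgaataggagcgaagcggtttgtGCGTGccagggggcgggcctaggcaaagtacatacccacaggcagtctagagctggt
Casp9, chr4:141793362-141793611, plus strand: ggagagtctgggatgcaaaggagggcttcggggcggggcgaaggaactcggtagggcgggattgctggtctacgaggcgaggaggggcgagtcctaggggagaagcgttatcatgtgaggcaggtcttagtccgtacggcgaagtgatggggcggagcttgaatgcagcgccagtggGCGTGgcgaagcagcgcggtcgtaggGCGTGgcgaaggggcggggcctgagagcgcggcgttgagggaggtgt

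The promoters of all 8 members were found in the RefSeq table. The core was in 2 of these 8 windows, once in that of Fas and at 2 places in that of Casp9, and in 28.2% of the 32851 promoter windows of the same length. The letters were not in the windows of Cflar and Casp8, whose G and C content was 42.8% and 39.6% against a median of 52.4% over all windows. The Casp9 window, with its 66% of G and C, was the richest of the 8. A match describes letters and is not a binding site, and windows outside these 250 bases were not searched.

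The other genes of the pathway were taken from lists by role, with the brightest probe set of each gene. Over all 12393 genes taken this way 20% lay higher in TCDD without overlap and 19.4% lower, and the median difference was 0.00. For the 8 genes described here the corresponding counts were 1 higher and 3 lower, with a median of -0.25. Bright probe sets lay lower more often. At a mean level of 7 to 8, 31.1% of all probe sets were lower and 11.2% higher without overlap, with a median of -0.20. From 8 to 9 these were 37.2%, 4.6% and -0.35. Apaf1, Aifm1, Diablo, Xiap and Naip5, described below, lie at such levels, so lists of bright genes are to be read against these shares. No gene of any list passed (limma adjusted p under 0.05 in 0 of the genes measured), and some listed genes were not analysed here.

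Of 9 other death receptors, ligands and TRAIL receptors 8 were measured, 2 higher and 2 lower without overlap, with a median difference of 0.08. The largest was that of Tnfrsf21, death receptor 6, at 5.5 and 6.1 in TCDD and 7.5 and 6.9 in DMSO, a difference of -1.40 (SE 0.35; limma adjusted p = 0.379). Its other probe set did not share this, with a difference of 0.05. Tnfrsf1a, the TNF receptor with a death domain, differed by -0.35, which was 0.00 under quantile normalization and -0.05 under cyclic loess. Tnfrsf10b, the TRAIL receptor of the mouse, read 6.1 and 6.2 in TCDD and 5.9 and 5.8 in DMSO, a difference of 0.30 (SE 0.0848), and its other probe set differed by -0.10. Tnfrsf23, a decoy receptor for TRAIL, differed by 0.25.

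Among 13 adaptors and modifiers of the death-inducing complex 11 were measured, 2 higher and 1 lower without overlap, with a median of -0.20. Tnfaip3, which encodes the ubiquitin-editing enzyme A20, read 5.9 and 6.1 in TCDD and 5.6 and 5.5 in DMSO, a difference of 0.45 (SE 0.11; limma adjusted p = 0.379). Cul3, a scaffold of the ubiquitin ligase that acts on caspase-8, differed by -0.55, Traf2 by -0.45 and Casp8ap2, also called FLASH, by -0.30, and all of these overlapped. Cul3 turned to 0.15 and Casp8ap2 to 0.20 without TCDD replicate 2, and Traf2 stood at -0.05 without DMSO replicate 1. Both other Cul3 probe sets, of which 1 is dim, differed by -0.45 and were lower without overlap.

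Of 6 other caspases 4 were measured. Casp2, an initiator caspase, read 7.8 and 8.3 in TCDD and 8.6 and 9.1 in DMSO, a difference of -0.80 (SE 0.294; limma adjusted p = 0.427) without overlap. Casp14, a caspase known from the skin, read 5.6 and 6.4 in TCDD and 5.3 and 4.9 in DMSO, a difference of 0.90 (SE 0.369; limma adjusted p = 0.441) without overlap, and 0.50 without TCDD replicate 2. Casp4, an inflammatory caspase, differed by -0.40 and Casp12 by 0.05, with overlap in both. Casp4 stood at -0.05 without DMSO replicate 2 and at -0.75 without DMSO replicate 1.

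The mitochondrial arm and the apoptosome, 7 genes all measured, had 3 lower and 0 higher without overlap and a median of -0.35. Apaf1, the scaffold on which caspase-9 is activated, read 7.1 and 6.9 in TCDD and 7.5 and 8.3 in DMSO, a difference of -0.90 (SE 0.341; limma adjusted p = 0.441), and -0.50 without DMSO replicate 2. Its dimmer probe set differed by -0.10. Bid, which caspase-8 cuts to connect the death receptor to mitochondria, read 5.7 and 5.6 in TCDD and 5.8 and 6.8 in DMSO. The Bid difference was -0.65 (SE 0.413), and it was -0.15 without DMSO replicate 2; a dim second probe set stood at 0.30. Aifm1, the apoptosis-inducing factor gene, differed by -0.50 and Diablo, an antagonist of the inhibitors of apoptosis, by -0.35. Under quantile normalization Aifm1 stood at -0.18 and Diablo at -0.10, and without DMSO replicate 1 Diablo stood at -0.05. The other Diablo probe set, which is dim, was higher in TCDD without overlap, at 0.20.

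The inhibitors of apoptosis had 7 of 8 measured, 3 lower and 0 higher without overlap, and a median of -0.35. Naip5, in the mouse also a sensor of bacterial flagellin, read 6.4 and 6.7 in TCDD and 8.1 and 8.0 in DMSO, a difference of -1.50 (SE 0.143; limma adjusted p = 0.349). Naip genes are close copies of each other, so its probes may also bind their transcripts. Xiap, the inhibitor that binds caspase-9 and the executioner caspases, read 7.2 and 7.3 in TCDD and 8.1 and 9.0 in DMSO, a difference of -1.30 (SE 0.373; limma adjusted p = 0.379), and -0.85 without DMSO replicate 2. The other 5 probe sets of Xiap were dim and differed by -0.10 to 0.20. Birc5 (survivin), best known for its part in cell division, differed by -0.50 without overlap and Naip2 by -0.35 with overlap.

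Of 8 caspase substrates and DNA fragmentation genes, all measured, 1 was higher and 1 lower without overlap, and the median was 0.00. Dffa, the inhibitor that caspases cut to free the DNase, read 6.6 and 6.4 in TCDD and 7.0 in both DMSO arrays, a difference of -0.50 (SE 0.102; limma adjusted p = 0.349). Dffb, the DNase itself, was dim and differed by 0.35, while its other probe set, also dim, differed by -0.55 and was lower without overlap, so the 2 differ in sign. Rock1, a kinase that caspases activate, differed by -0.15 and Acin1 by -0.10, and both overlapped; Rock1 turned to 0.23 and Acin1 to 0.03 under quantile normalization. The other Rock1 probe sets disagreed: 2 were lower in TCDD without overlap, at -0.80 and -0.30, and a dim one was higher without overlap, at 0.35. The other Acin1 probe set differed by 0.30, with overlap. Of the 2 necroptosis genes 1 was measured: Ripk3, the kinase of the route that runs when caspase-8 is inactive, read 6.6 and 7.0 in TCDD and 7.4 and 7.1 in DMSO, a difference of -0.45 (SE 0.212; limma adjusted p = 0.444), which was -0.25 without TCDD replicate 1.

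**Figure D3:**
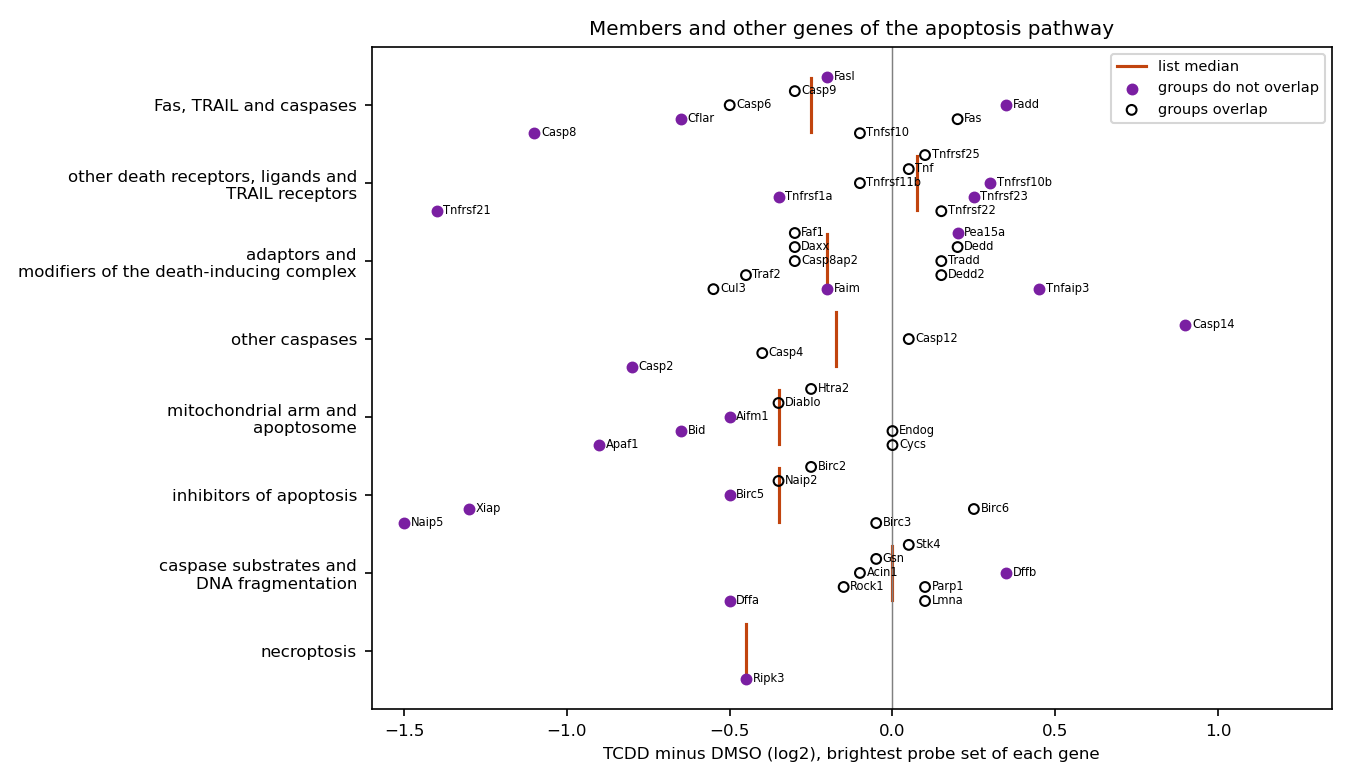
Difference TCDD minus DMSO (log2, horizontal axis) of the brightest probe set of each gene, by list (vertical axis, offsets within a row only separate the names); filled points are genes whose groups do not overlap, open points overlap, and red bars are list medians. The inhibitors of apoptosis and the mitochondrial genes have medians of -0.35, with Naip5 at -1.50 and Xiap at -1.30 farthest to the left.

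Normalization and the choice of arrays moved the sizes of these differences more than their signs. Across the settings run the Casp8 difference ranged from -1.40 to -0.80 and that of Cflar 1424996_at from -0.75 to -0.43. Cflar 1449317_at ranged from -0.90 to -0.10 and Casp6 from -0.80 to -0.18, with the ends nearest 0 given by leaving out TCDD replicate 1 for Cflar and by quantile normalization for Casp6. Of the 13 member probe sets 12 kept their sign or came to 0 in all settings, the exception being Fasl 1418803_a_at.

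**Figure D4:**
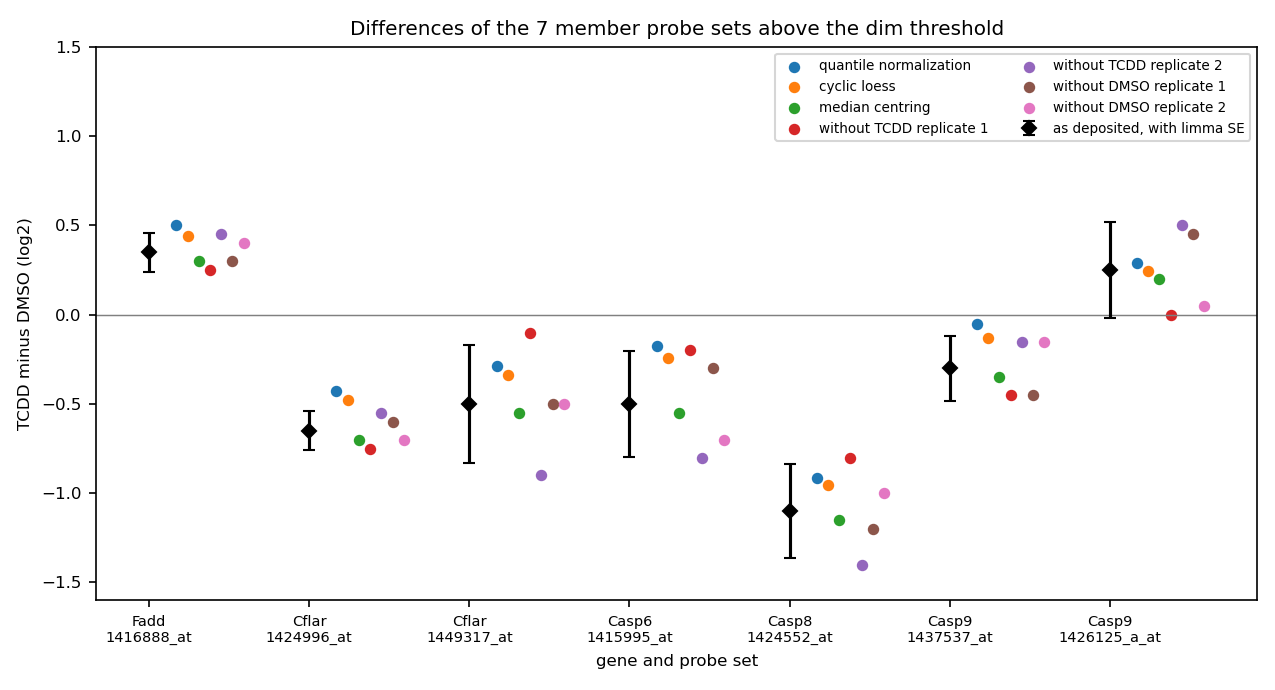
Difference TCDD minus DMSO (log2, vertical axis) of the 7 member probe sets above the dim threshold (horizontal axis); black diamonds are the deposited values with bars of 1 SE from limma, and coloured points are other normalizations or 1 array left out. Casp8 stays between -1.40 and -0.80 and Cflar 1424996_at between -0.75 and -0.43, while Cflar 1449317_at comes to -0.10 without TCDD replicate 1.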

How the data were processed

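Per the submitters' processing notes the deposited values are RMA values, which are on the log2 scale; RMA corrects background, quantile-normalizes arrays and summarizes the probes of a probe set. No source used here names the software. RNA was amplified before labelling, per the labels' protocols. The table holds 22690 probe sets; 64 Affymetrix controls were left out of the tests. Of the rest, 20380 have 1 gene symbol in GEO's platform annotation, 691 have several and 1555 have none.

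Differences were tested two-sided by lmFit and eBayes of limma 3.58.1 under R 4.3.3 on all 4 arrays and all 22626 probe sets. The prior had 1.03 degrees of freedom. In 741 probe sets the arrays of each group were equal. The fit was tested on simulated data in which every probe set had the same spread. In these arrays the spread differed between probe sets, so that run does not show how well the fit finds changes here. Arrays give no counts, so their number limits the precision.

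The members and lists were chosen with earlier results of these data known. Named were every member probe set, up to 4 genes of each pathway list by size of difference, and, for members of range 1 or more, the 3 nearest patterns (ties in alphabetical order). Lists used the brightest probe set of each gene. Alternatives were quantile normalization, centring on medians, leaving out dim probe sets, a replicate block, a trended robust prior, no moderation, a threshold of 0.10, and each array left out. Cyclic loess and a crossed replicate block were added after seeing the data.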

Additional observations from a re-analysis of the deposited data

How the results depend on the processing

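The count of called probe sets, 0 of the members and 0 over the whole table, was the same under every alternative run, the replicate block (0) included. The replicate numbers are only numbers here: the contrast of replicate 1 with 2 had a correlation of -0.189 between TCDD and DMSO over all probe sets, and the crossed replicate block also called 0. Of the member probe sets without overlap, the 2 higher in TCDD became 1 with dim probe sets removed and 0 for differences of at least 1, and lay between 2 and 4 after leaving out 1 array. The 4 lower became 7 under median centring and 1 for differences of at least 1, and lay between 5 and 7 after leaving out 1 array. A lone array was taken to vary as the other group does, and overlap is then easier to avoid. Fasl 1418803_a_at stood at -0.0103 under cyclic loess and between -0.05 and 0.15 after leaving out 1 array. Of 29 list genes 21 kept their sign or came to 0 in all settings. With 1 array left out Cul3 ranged from -1.25 to 0.15, Casp8ap2 from -0.80 to 0.20, Casp12 from -0.10 to 0.20, Naip2 from -0.90 to 0.20, Rock1 from -0.60 to 0.30, Acin1 from -0.40 to 0.20, Cyp1b1 from -0.10 to 0.60 and Nqo1 from -0.05 to 0.35. Rock1 stood at 0.23 under quantile normalization and 0.16 under cyclic loess, and Acin1 at 0.025 under quantile normalization. The cause of these changes of sign was not tested. Signal near the background limits what can be said of Fas, Fasl and Tnfsf10.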
